A study of Mus musculus with 2 samples.

Results

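The MHC and antigen presentation genes described here are 43 protein-coding genes among the 55536 annotated genes of the deposited gene tables. They were chosen by symbol: 33 genes whose names begin with H2-, apart from H2-Ke6, and 10 others, namely B2m, Tap1, Tap2, Tapbp, Cd74, Ciita, Nlrc5, Psmb8, Psmb9 and Psmb10. Of the 43 genes, 38 lie on chromosome 17 and 5 elsewhere in mouse genome build mm10. The tissue was adrenal gland from females of the mouse strain B6CASTF1/J at 25 days of age, untreated as far as the labels say, and the assay was total RNA sequencing. There was 1 group of 2 libraries, replicate 2 and replicate 1, each started from 300 ng of RNA. Their labels number them as biological replicates 2 and 1 and name different animals in the tissue description. The labels also share a donor identifier and a library description, so any SD or p-value below may reflect technical spread alone. Such values speak for these libraries only. B6CASTF1/J is a first-generation hybrid of a B6 and a CAST parent, and the reads were mapped to mm10, whose sequence is that of C57BL/6J. Reads of the CAST copies were thus counted against B6 sequences of very polymorphic genes. No counts per parental copy were used, and how this choice of genome affected the levels was not tested.

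MHC class I molecules display peptides from inside the cell. They consist of a heavy chain, a light chain encoded by B2m, and a peptide that proteasomes cut, the TAP transporter carries into the endoplasmic reticulum and tapasin helps to load. MHC class II molecules display peptides from engulfed material, chiefly on macrophages, dendritic cells and B cells, and are assembled on the invariant chain encoded by Cd74. NLRC5 is the main activator of class I genes and CIITA that of class II genes, and interferon gamma induces both.

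Read numbers are expected counts, the estimates of reads per gene that the quantification gives, not always whole. Replicate 2 held 33728646 of them and replicate 1 held 19366343. Protein-coding genes of the nucleus, leaving out Lars2, took 66.1% of them in replicate 2 and 36.3% in replicate 1. Levels are therefore given as rescaled TPM, TPM values (transcript abundance per length, on a fixed total) set to sum to 1000000 over these coding genes in each library. All 6 cortical markers and all 4 medullary markers of the gland were detected, with Hsd3b1 and Chga highest. Replicate 1 stood apart by its liver genes: the summed level of 7 liver markers was 11.4 in replicate 2 and 982 in replicate 1.

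Of the 43 members, 23 were detected, meaning at least 1 rescaled TPM in both libraries, and 11 had 0 counts in both. The members took 18682 counts in replicate 2 and 5177 in replicate 1, which was 0.0838% and 0.0736% of the coding counts. H2-K1, H2-D1 and B2m held 47.6% of the members' counts in replicate 2 and 51.7% in replicate 1. The detected members had a median level of 20.3 in replicate 2 and 14.9 in replicate 1, while the 13290 detected nuclear coding genes had a median of 29.0 over both libraries. The gland thus had a few class I genes far above that median and many H2- genes at or near 0.

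**Figure D1:**
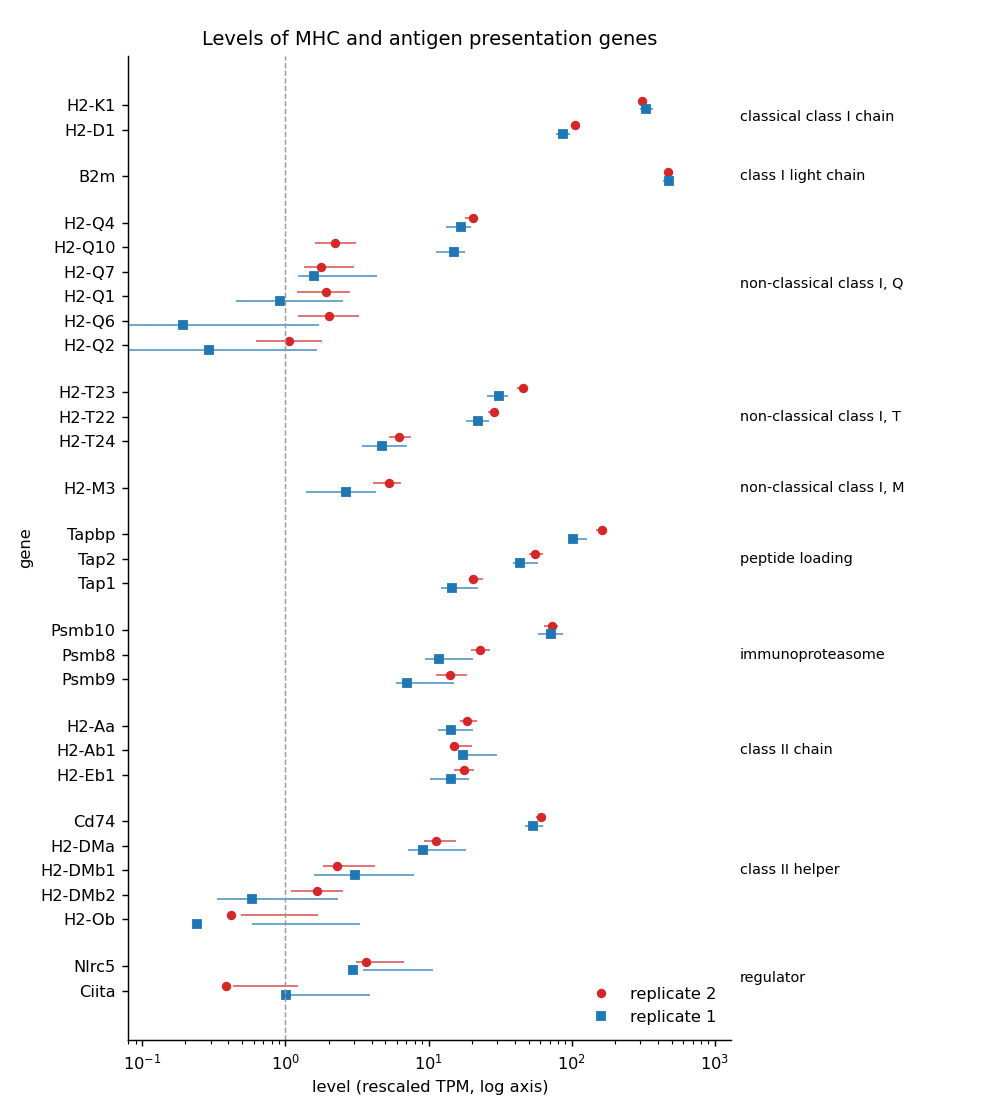
Levels in rescaled TPM on a log axis for the members with more than 3 counts in either library, grouped by role. Circles are replicate 2 and squares replicate 1. Lines are the authors' deposited credibility intervals, which belong to a posterior mean and need not contain the plotted estimate at low counts. The dashed line marks 1 rescaled TPM. B2m and H2-K1 lie at the top in both libraries, and H2-Q10 is the detected gene with the widest gap, at 2.22 in replicate 2 and 14.9 in replicate 1.

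B2m, the light chain of every class I molecule (chromosome 2, 122147686 to 122153083), had the highest level of all members. Its level was 473 in replicate 2 and 475 in replicate 1, or 474 ± 1.26 (SD, n = 2), which placed it at rank 290 of the 13290 detected coding genes. H2-K1 (chromosome 17, 33996017 to 34000347), a classical heavy chain that presents peptides to CD8 T cells, reached 312 in replicate 2 and 332 in replicate 1. The other classical heavy chain, H2-D1 (chromosome 17, 35262730 to 35267499), reached 106 in replicate 2 and 87.5 in replicate 1. B2m was 1.13 times the sum of H2-K1 and H2-D1 in both libraries over all transcripts, but 1.89 times in replicate 2 and 2.21 times in replicate 1 over protein-coding transcripts.

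The lead of H2-K1 over H2-D1 was smaller over coding transcripts. H2-K1 was 2.94 times H2-D1 in replicate 2 and 3.80 times in replicate 1 over all transcripts, but 1.51 and 1.63 times over protein-coding transcripts. Most of the part outside coding transcripts was H2-K1-215, a 457-base transcript annotated as a retained intron, which held 46.6% of the H2-K1 level in replicate 2 and 54.6% in replicate 1. By counts, 77.5% of the H2-K1 reads in replicate 2 and 71.3% in replicate 1 fell on protein-coding transcripts. A short transcript weighs more in TPM than in counts, since TPM divides by length.

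The promoters of the classical chains, of B2m, of the class II chain H2-Aa and of H2-Q10 are printed here because they hold boxes known to drive MHC genes, of which some are altered in H2-Q10. The sequences are from RefSeq, build GRCm38.p6, which has the coordinates of mm10, and represent the B6 copy. Capitals mark exact matches to GGGATTCCC (an NF-kB site), TTTCACTTC (an interferon response element), TGACG (part of the X2 box) and ATTGG (the CCAAT or Y box), searched on both strands, so that TGACG on both strands of H2-Aa shows as one longer run.
H2-K1, chr17:34000351-34000469, minus strand: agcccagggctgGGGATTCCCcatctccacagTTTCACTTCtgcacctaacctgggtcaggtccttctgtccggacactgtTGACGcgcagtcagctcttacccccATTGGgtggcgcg
H2-D1, chr17:35262912-35263030, plus strand: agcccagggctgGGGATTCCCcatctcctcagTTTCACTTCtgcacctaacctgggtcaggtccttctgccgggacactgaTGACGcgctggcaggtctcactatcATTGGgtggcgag
H2-Q10, chr17:35469902-35470023, plus strand: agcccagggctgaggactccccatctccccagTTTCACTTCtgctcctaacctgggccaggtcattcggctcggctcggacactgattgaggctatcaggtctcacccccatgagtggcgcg
B2m, chr2:122147599-122147646, plus strand: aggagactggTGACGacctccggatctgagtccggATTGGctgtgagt
H2-Aa, chr17:34287859-34287907, minus strand: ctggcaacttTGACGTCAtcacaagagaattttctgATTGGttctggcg

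The H2-K1 stretch was 89.9% identical to that of H2-D1 and 88.8% identical to that of H2-Q10. Against H2-K1, and counting positions from 1 at the 5′ end of each box, H2-Q10 had G1A and T5C in the NF-kB box, an unchanged interferon box, 3 of 5 X2 bases aligned with the other 2 in a gap, and G5A with 1 gap base in the CCAAT box. Promoter windows were found for 36 of the 43 members, and the 250 bases before the start annotated in RefSeq were searched. The H2-D1 stretch lies 64 to 182 bases before its RefSeq start. It falls inside the H2-D1 coordinates given above, which come from another annotation (GENCODE M21). The NF-kB letters were present in 4 of the 36 (H2-K1, H2-D1, H2-Q6 and H2-Q7) and in 0.352% of all 27025 genes with a window. The interferon letters were present in 7 of the 36 and in 0.477% of all genes. TGACG followed after a gap of 15 to 25 bases by ATTGG was present in B2m, H2-Aa, H2-D1, H2-K1, H2-M3 and H2-Q7, or 6 of the 36, and in 0.429% of all genes. TGACG alone occurred in 15 of the 36 and 19.8% of all genes, and ATTGG alone in 31 of the 36 and 37.5% of all genes. These are letter matches, not shown sites of binding. The NF-kB and interferon letters are those of the H2-K1 and H2-D1 boxes, and all members that hold them are related class I chain genes. Their shares beside those of all genes are thus no test of enrichment.

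The non-classical class I genes fell into a group of moderate level and a larger group near 0. Of the 22 genes, which are 6 of the Q region, 4 of the T region and 12 of the M region, 7 were detected. H2-T23, which encodes Qa-1, a ligand of inhibitory receptors on natural killer cells, was highest at 45.3 in replicate 2 and 31.0 in replicate 1. H2-T22, a ligand of some gamma delta T cells, had 28.9 in replicate 2 and 22.1 in replicate 1. The third detected T gene, H2-T24, had 6.24 and 4.69. H2-Q4 had 20.3 in replicate 2 and 16.8 in replicate 1, and H2-Q7, which encodes the lipid-anchored Qa-2, had 1.77 and 1.60. H2-M3, which presents formylated peptides, was the only M gene detected, at 5.26 in replicate 2 and 2.66 in replicate 1.

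The members below the threshold were mostly M genes. H2-M1, H2-M5, H2-M11 and the 6 H2-M10 genes had 0 counts in both libraries, as did H2-T3 and H2-Eb2, and a count of 0 leaves room for up to 3 counts per library. H2-M1 and the H2-M10 genes are known from sensory neurons of the vomeronasal organ. H2-M9 and H2-Oa had 3 counts in replicate 2 and 0 in replicate 1, and H2-M2 had 2 and 0. The other members below the threshold had 9 to 38.2 counts in replicate 2 and 1 to 11 in replicate 1. These were H2-Q1 with 38.2 and 5.87 counts, H2-Q6 with 33.2 and 1.36, H2-DMb2 with 23.1 and 2.67, Ciita with 19 and 11, H2-Q2 with 13.0 and 1, and H2-Ob with 9 and 1. With so few reads, more so in replicate 1, where these genes stood against the threshold was uncertain.

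H2-Q10 was the detected member that differed most between the libraries. H2-Q10 (chromosome 17, 35470089 to 35474563) encodes a secreted class I molecule made mainly by the liver. It had 56.8 counts in replicate 2 and 78.6 in replicate 1, and a level of 2.22 in replicate 2 and 14.9 in replicate 1. On counts scaled to the depth of each library the log2 ratio was -2.12, and the fold of replicate 2 over replicate 1 was 0.225 with a 95% counting interval of 0.157 to 0.320. Its mean count lay below the 100 needed for the test. With a lower minimum of 10 counts it was lower in replicate 2 (adjusted p = 4.04e-16 by the exact binomial test).

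The difference lay in the protein-coding transcript of H2-Q10. H2-Q10-201, which is protein-coding, had 20.9 counts in replicate 2 and 65.1 in replicate 1, a fold of 0.0999 (95% counting interval 0.0584 to 0.167). H2-Q10-203, a 4328-base retained intron form, had 35.9 counts in replicate 2 and 13.5 in replicate 1, a fold of 0.828 (0.421 to 1.61) whose interval includes no difference. The liver markers moved the same way: all 7 were lower in replicate 2, with a median log2 ratio of -7.57 and none at 0, and albumin (Alb) had a level of 10.3 in replicate 2 and 683 in replicate 1. The part of liver RNA in the H2-Q10 difference was not tested. In the second deposited quantification H2-Q10 had 130 counts in replicate 2 and 96.5 in replicate 1, and its log2 ratio was -1.19.

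**Figure D2:**
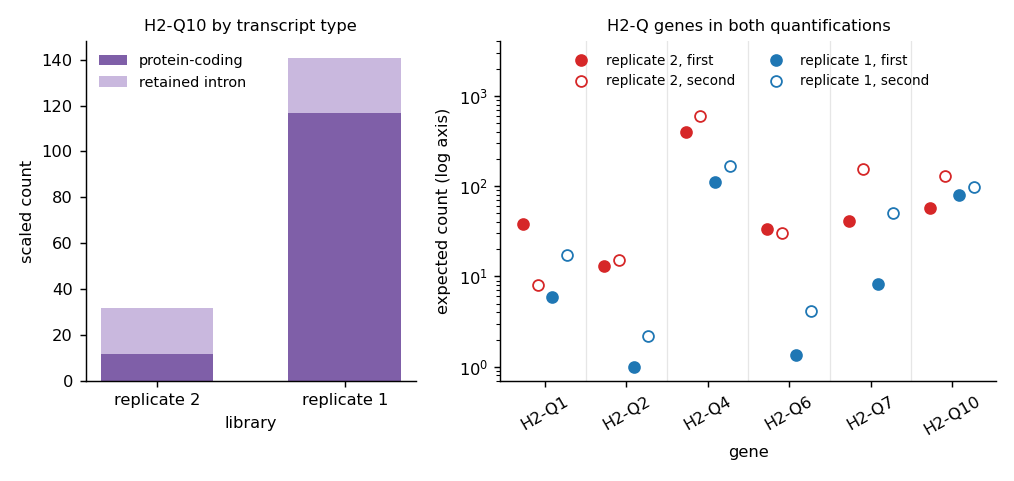
Left, H2-Q10 counts divided by each library's scaling factor, split by transcript type, with replicate 2 at 31.7 and replicate 1 at 141 in total. Right, expected counts on a log axis of the 6 H2-Q genes in replicate 2 (red) and replicate 1 (blue), with filled points for the first and open points for the second quantification. The protein-coding part of H2-Q10 is 11.7 in replicate 2 and 117 in replicate 1, while the retained intron part is 20.1 and 24.2.

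Close copies may limit the values of the Q genes. H2-Q6 and H2-Q7 were 94.3% identical over their aligned coding sequence, and H2-K1 and H2-D1 91.5%, against a median of 68.6% over all 276 pairs of class I chains. Of the 50-base stretches in its transcripts, H2-Q6 shared 32.0%, H2-Q7 26.4% and H2-Q10 19.0% with transcripts of other genes, and H2-T22 shared 34.5%, mostly with the pseudogene H2-T10. The counts of some of these genes differed between the quantifications, and the part of shared stretches in this was not tested. H2-T22 had 529 counts in replicate 2 and 130 in replicate 1 in the first, and 559 and 137 in the second. H2-Q7 had 40.9 counts in replicate 2 and 8.17 in replicate 1 in the first, but 155 and 50.5 in the second. H2-Q1 had 38.2 counts in replicate 2 and 5.87 in replicate 1 in the first, but 8.04 and 17.2 in the second, so that the library with more counts changed. B2m, Cd74, H2-Ab1, H2-Eb1, Nlrc5, Psmb9 and Psmb10 shared no 50-base stretch with another gene's transcripts read in their own direction. Opposite strands were not compared, so the overlap of Psmb9 with Tap1, described below, did not enter.

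The genes of peptide loading were all detected, and the scaled counts of all 3 were higher in replicate 2. Tapbp, which encodes tapasin, the bridge between the transporter and the empty class I molecule, had 162 in replicate 2 and 103 in replicate 1. Ratios of counts and of levels can differ, since a level depends on the lengths of the transcripts that reads were assigned to. Scaled to depth, its count in replicate 2 was 1.21 times that in replicate 1 (95% counting interval 1.12 to 1.30, adjusted p = 6.86e-06 by the exact binomial test). Tap2, a subunit of the peptide transporter, had a level of 55.1 in replicate 2 and 43.8 in replicate 1 and a scaled fold of 1.22 (1.09 to 1.38, adjusted p = 0.00311 by the same exact test). In the second quantification its level was 42.5 in replicate 2 and 76.8 in replicate 1, so the direction of the level turned, while its counts were again higher in replicate 2 with a log2 ratio of 0.35. Tap1, the other subunit, had 20.3 in replicate 2 and 14.7 in replicate 1 and a scaled fold of 1.66 (1.36 to 2.04, adjusted p = 1.39e-06 by the exact test).

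In the first quantification, most of the Tap2 signal was not on coding transcripts. Tap2-202, annotated as a retained intron, held 78.0% of the Tap2 level in replicate 2 and 83.0% in replicate 1, and 59.9% and 32.9% in the second quantification. On protein-coding transcripts alone, Tap2 had a level of 12.1 in replicate 2 and 7.40 in replicate 1, and Tap1 had 17.5 and 9.96. By that measure Tap2 lay below Tap1 in both libraries, whereas over all transcripts Tap2 lay above Tap1 in both. The second quantification gave the other order on coding transcripts, with deposited TPM of 10.5 in replicate 2 and 15.04 in replicate 1 for Tap2. For Tap1 it gave 9.01 and 2.22. In replicate 1 most of the Tap2 value lay on the short Tap2-203 (376 bases, 3.39) and Tap2-204 (378 bases, 9.64). Both were at 0 in replicate 2. The 3442-base Tap2-201 had 2.01 in replicate 1, below Tap1.

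The immunoproteasome subunits were expressed well below the constitutive subunits they replace. Psmb8, Psmb9 and Psmb10 take the places of Psmb5, Psmb6 and Psmb7 in the catalytic ring and change which peptides are cut. Psmb8 had a level of 22.9 in replicate 2 and 11.9 in replicate 1, against 357 and 365 for Psmb5. Psmb9 had 14.2 in replicate 2 and 7.11 in replicate 1, against 263 and 258 for Psmb6. Psmb10 had 73.0 in replicate 2 and 71.8 in replicate 1, against 324 and 288 for Psmb7.

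As a share of its pair, Psmb8 made up 6.03% in replicate 2 and 3.15% in replicate 1, or 4.59 ± 2.03% (SD, n = 2). Psmb9 made up 5.11% in replicate 2 and 2.68% in replicate 1, or 3.89 ± 1.71%. Psmb10 made up 18.4% in replicate 2 and 19.9% in replicate 1, or 19.2 ± 1.09%, and was the highest of the 3 in both libraries. On protein-coding transcripts alone the Psmb10 share was 6.71% in replicate 2 and 5.70% in replicate 1, since 31.7% of its level in replicate 2 and 24.0% in replicate 1 lay on its only coding transcript. In the first quantification the order of the 3 shares was then Psmb10, Psmb9 and Psmb8 in both libraries. In the second, coding transcripts of Psmb8 had deposited TPM of 9.29 in replicate 2 and 2.63 in replicate 1. Those of Psmb9 were lower, at 5.83 and 1.01, and shares over coding transcripts were not computed there.

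**Figure D3:**
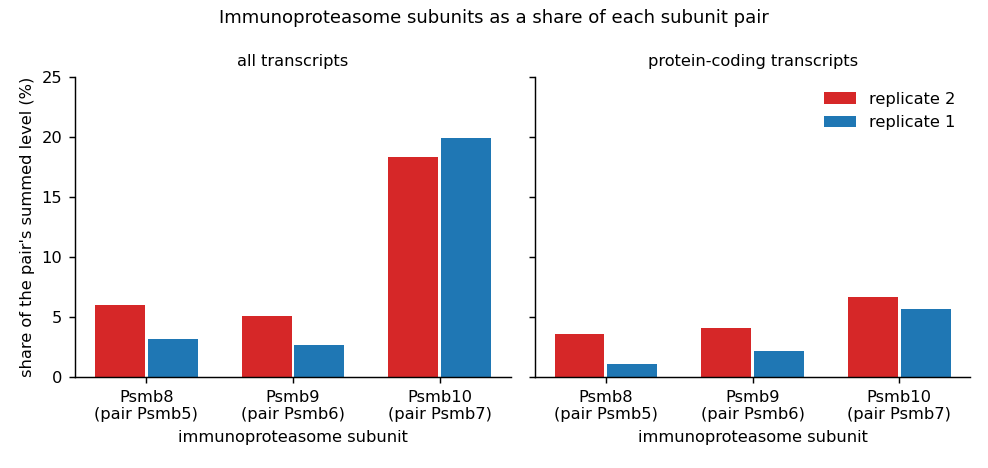
Level of each immunoproteasome subunit as a percent of the summed level of the subunit and the constitutive one it replaces, over all transcripts (left) and protein-coding transcripts (right). Red bars are replicate 2 and blue bars replicate 1. The Psmb10 share is 18.4% in replicate 2 and 19.9% in replicate 1 on the left, against 6.71% and 5.70% on the right, where no bar exceeds 6.71%.

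Psmb8 was higher in replicate 2 by scaled counts, with a fold of 1.73 (95% counting interval 1.24 to 2.48, adjusted p = 0.00359 by the exact binomial test). In the second quantification the call was lost, with a log2 ratio of 0.48 against 0.78 in the first (adjusted p = 0.0596 by the exact test). Psmb9, with 137 counts in replicate 2 and 25 in replicate 1, was below the minimum for testing and had a scaled fold of 1.71 (1.11 to 2.73). Psmb10 had a scaled fold of 1.10 (0.910 to 1.33), an interval that includes no difference. Psmb9, Tap1, Psmb8 and Tap2 lie within 34335 bases of chromosome 17, from 34181987 to 34216321. Psmb9 and Tap1 overlap by 212 bases on opposite strands. The library kit kept strand, but the sources used here do not say whether the counting used it.

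Over all transcripts, the class II chains were at similar and modest levels. H2-Aa, the alpha chain of the I-A molecule, had 18.7 in replicate 2 and 14.4 in replicate 1. Its beta chain H2-Ab1 had 15.1 in replicate 2 and 17.3 in replicate 1. H2-Eb1, the beta chain of I-E, had 17.6 in replicate 2 and 14.3 in replicate 1. The means of H2-Aa, H2-Ab1 and H2-Eb1 were 16.5 ± 3.00, 16.2 ± 1.58 and 15.9 ± 2.37 (SD, n = 2 each), so these genes differed from each other by less than their spread. Over protein-coding transcripts H2-Eb1 was lower than the others, at 4.46 in replicate 2 and 3.38 in replicate 1, against 18.4 and 14.3 for H2-Aa and 13.5 and 13.1 for H2-Ab1. H2-Eb2 had 0 counts.

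Class II chains were far below class I chains. The sum of the classical class I chains was 418 in replicate 2 and 420 in replicate 1. That of the class II chains was 51.3 in replicate 2 and 46.0 in replicate 1. The ratio of these sums was 8.15 in replicate 2 and 9.13 in replicate 1, or 8.64 ± 0.695 (SD, n = 2), and 6.88 and 6.99 over protein-coding transcripts. In a whole gland, fewer cells of a type and less RNA per cell cannot be told apart.

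The alpha chain that pairs with H2-Eb1 depends on the strain. The B6 haplotype carries a defective H2-Ea gene, known to leave B6 mice without I-E on the cell surface, and GENCODE lists it as the polymorphic pseudogene H2-Ea-ps. It had 97 counts in replicate 2 and 27 in replicate 1, a level of 10.2 and 9.72, which was 0.577 and 0.681 times that of H2-Eb1. Which parental copy these reads came from was not analysed here. H2-Eb1 itself had 35.0% of its counts in replicate 2 and 27.5% in replicate 1 on protein-coding transcripts, and its transcript H2-Eb1-205, annotated to undergo nonsense-mediated decay, held 61.9% and 51.2% of its level.

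Cd74, the invariant chain that guides class II molecules to the endosome, was the highest class II gene. Cd74 had 61.1 in replicate 2 and 53.7 in replicate 1, or 57.4 ± 5.23 (SD, n = 2), which was 1.19 and 1.17 times the summed class II chains. Its short form Cd74-201, with a coding sequence of 645 bases, held 70.1% of the level in replicate 2 and 69.2% in replicate 1. The long form Cd74-202, with a coding sequence of 837 bases, held 29.9% and 30.8%. The proportion of the forms was thus within 1 percentage point between the libraries, although the second quantification gave the short form 69.2% in replicate 2 and 59.1% in replicate 1.

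The other class II helpers were low. H2-DMa, the alpha chain of the molecule that exchanges the invariant chain peptide for antigen, had 11.2 in replicate 2 and 9.19 in replicate 1. Its beta chain H2-DMb1 had 2.31 in replicate 2 and 3.05 in replicate 1, on 31.9 and 8.33 counts. The second beta chain, H2-DMb2, was below the threshold in replicate 1 and shares 24.8% of its 50-base stretches with other genes. H2-Oa and H2-Ob, which form the DM inhibitor of B cells, had at most 9 counts in either library.

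The genes of the master regulators were low. Nlrc5 had a level of 3.67 in replicate 2 and 2.95 in replicate 1, on 96 and 34 counts. Ciita had 0.384 in replicate 2 and 1.02 in replicate 1, on 19 and 11 counts, and missed the threshold in replicate 2. The genes of the RFX complex, which binds the X box of both classes, were higher: Rfx5 had 35.3 and 27.9, Rfxap 33.8 and 48.5, and Rfxank 17.1 and 14.8 in replicates 2 and 1. Irf1, a transcription factor of the interferon pathway, had 32.9 in replicate 2 and 30.9 in replicate 1.

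Rfx5 was higher in replicate 2 (adjusted p = 0.0148 by the exact binomial test) and Rfxap was lower (adjusted p = 0.0369). These genes belong to a list of 28 further genes of antigen processing, of which 27 were detected and 27 tested. In it 9 genes were higher in replicate 2, 6 were lower and 12 did not pass the test, with a median log2 ratio of 0.06, and the same test called 17.6% of all tested genes higher and 15.9% lower. The 3 with the highest levels are not specific to immune cells: the lysosomal proteases Ctsb, at 1149 in replicate 2 and 975 in replicate 1, and Ctsl, at 776 and 796, and the chaperone Calr, at 477 and 575.

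Between the libraries, the tested members tended to be higher in replicate 2. A gene was tested at a mean count of at least 100, by an exact conditional binomial test on scaled counts adjusted over all 11542 such genes, which compares these libraries and covers counting error only. Of the 15 members tested, 7 were higher in replicate 2, 0 were lower and 8 did not pass. The 7 were H2-D1, H2-T22, H2-T23, Tap1, Tap2, Tapbp and Psmb8. At this depth the test called 33.5% of all tested genes, 17.6% as higher and 15.9% as lower, so the members' 46.7% called higher exceeded the share of all genes called higher, and their share called in either direction was nearer to that of all genes. The median log2 ratio was 0.27 over the 15 members and 0.03 over all tested genes. Of the 15, 13 had a positive and 2 a negative ratio (B2m and H2-Ab1, both positive when scaled by spike-ins or total counts), from -0.08 for H2-Ab1 to 0.78 for Psmb8.

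No tested member differed 2-fold or more between the libraries. Of all tested genes 1.32% did, too small a share to expect any among 15 members. H2-Q10, with a log2 ratio of -2.12, had a mean count under 100 and was not tested. B2m and H2-K1, the highest members, had folds of 0.974 (95% counting interval 0.913 to 1.04) and 1.03 (0.959 to 1.11). In the second quantification B2m was lower in replicate 2, with a log2 ratio of -0.23 (adjusted p = 0.000137 by the exact binomial test). H2-D1 had a fold of 1.18 (1.07 to 1.29, adjusted p = 0.00349 by the exact binomial test). H2-T23 had a fold of 1.40 (1.17 to 1.68, adjusted p = 0.000706 by the exact binomial test), and H2-T22 one of 1.26 (1.04 to 1.55, adjusted p = 0.0460). The call of H2-T22 was lost with a minimum of 10 counts, where more genes enter the adjustment (adjusted p = 0.0577 by the exact test).

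**Figure D4:**
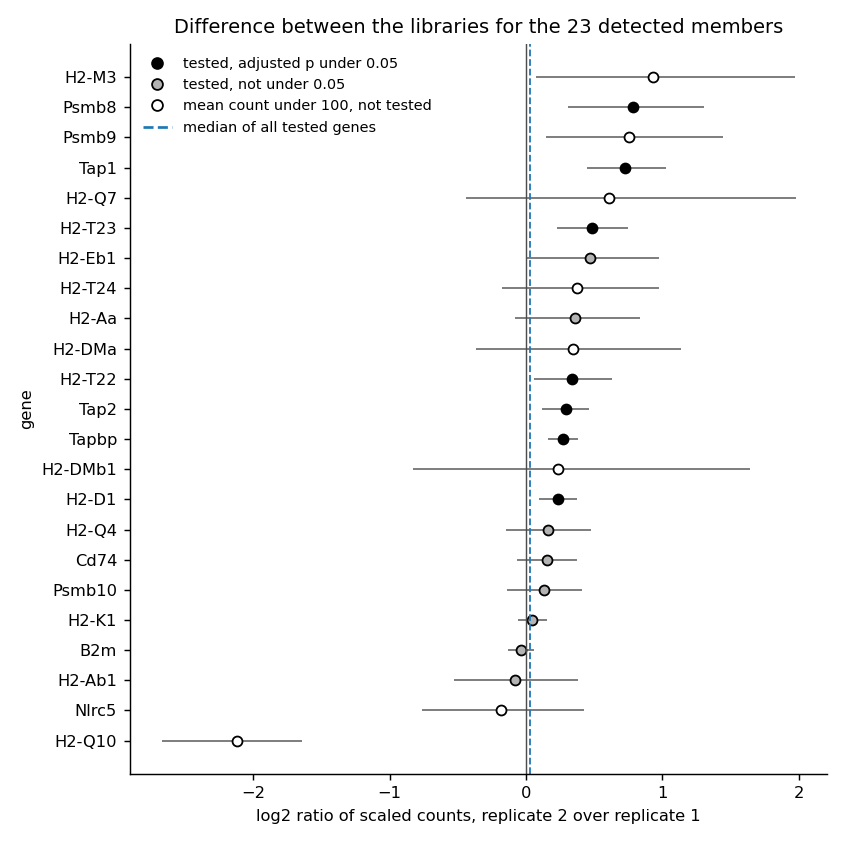
Log2 ratio of scaled counts, replicate 2 over replicate 1, for the 23 detected members, with 95% counting intervals. Black points were called at an adjusted p under 0.05, grey points were tested and not called, and white points had a mean count under 100. The dashed line is the median of all tested genes at 0.03. Of the called genes all lie to the right, and H2-Q10 lies alone at the left at -2.12.

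Genes of the interferon response were mostly higher in replicate 2 by sign. Of 12 interferon-response genes, all were detected and 11 had a positive ratio, with a median log2 ratio of 0.49 and a summed level of 103 in replicate 2 and 74.4 in replicate 1. Of these, 6 could be tested and 2 were called higher, the GTPases Gbp2 and Gbp3, as against 17.6% of all tested genes. The highest of them, Irgm1, had 22.0 in replicate 2 and 19.0 in replicate 1 and was not called. Their part in the members' ratios was not tested.

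Over all listed genes, markers of antigen-presenting cells had median log2 ratios of 0.21 for macrophages, -0.02 for dendritic cells and 0.44 for B cells. For dendritic cells and B cells these medians rest mostly on genes below the detection threshold. Only 2 markers of each of these lists were detected. Only 1 of each could be tested, with a log2 ratio of 0.35 for dendritic cells and 0.08 for B cells. No test compared the lists. The 10 macrophage markers were all detected and summed to 185 in replicate 2 and 172 in replicate 1, with Lyz2 highest at 46.3 and 43.9. Of the 8 that could be tested, Mrc1 was higher in replicate 2, Cd68 was lower and 6 did not pass. The 8 dendritic cell markers summed to 23.8 and 19.8 in replicates 2 and 1, nearly all of it from Zbtb46 at 20.2 and 14.8, and Xcr1 and Clec9a were at 0 counts in replicate 1. The 6 B cell markers summed to 44.6 and 39.3 in replicates 2 and 1, with Ighm highest at 38.8 and 35.8. The 8 T and natural killer cell markers summed to 3.55 and 1.06 in replicates 2 and 1, with Trac highest and 5 of them at 0 in replicate 1. The 6 endothelial markers summed to 552 and 515 in replicates 2 and 1, with Plvap highest. The part of these cells in the members' levels was not tested.

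The share of reads on protein-coding transcripts varied widely among the members. In the first quantification it was 100% for B2m and Cd74 in both libraries, and 99.2% in replicate 2 and 98.8% in replicate 1 for Tapbp. It was lowest for Tap2, at 18.3% in replicate 2 and 13.3% in replicate 1, and was 47.5% and 25.0% for Psmb8. In the second quantification, as a percent of level, coding transcripts held 40.1% in replicate 2 and 67.1% in replicate 1 for Tap2 and 83.4% and 79.6% for Psmb8. Psmb10, at 38.6% and 26.3%, and H2-Eb1, at 33.5% and 37.0%, then lay below Tap2. Of the 15 tested members, 12 had a higher coding share in replicate 2, 1 had a lower one and 2 were equal. Among all 10995 tested protein-coding genes, 4852 had a higher share in replicate 2, 4175 a lower one and 1966 were equal, and 2 lacked a share in a library. The median share was 84.9% in replicate 2 and 81.0% in replicate 1 for the tested members, and 95.2% and 95.1% for all tested coding genes.

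**Figure D5:**
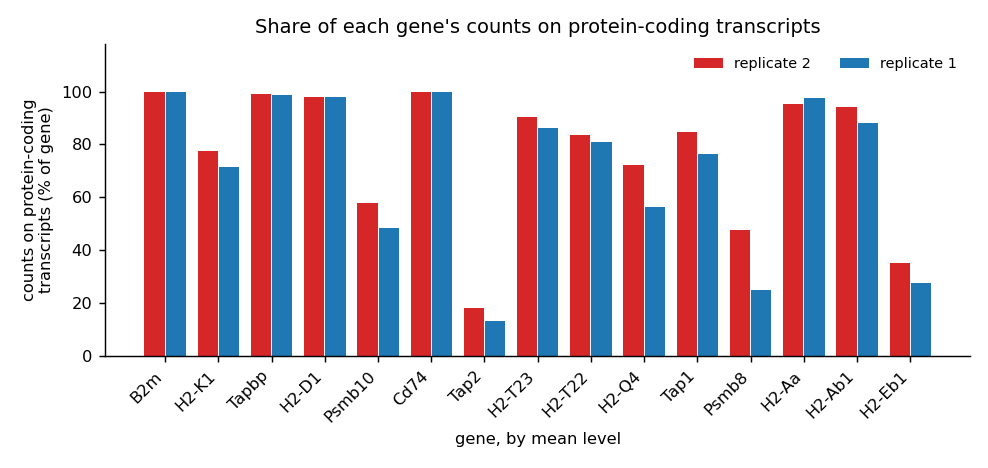
Percent of each gene's expected counts assigned to transcripts annotated as protein-coding, for the 15 tested members in order of mean level. Red bars are replicate 2 and blue bars replicate 1. Tap2, H2-Eb1, Psmb8 and Psmb10 have the lowest bars, with Tap2 at 18.3% in replicate 2 and 13.3% in replicate 1.

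A further 11 H2- genes are annotated as other than protein-coding and were set apart from the members. Of these, 5 had 0 counts in both libraries and 6 had counts. Those above 3 counts in both were H2-T-ps with 141 counts in replicate 2 and 18.4 in replicate 1, H2-K2 with 67.1 and 6.04, H2-T10 with 59.1 and 19.2, and H2-Ea-ps with the values given above.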

How the data were processed

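For each library the authors deposited a gene table and a transcript table of expected counts and TPM from 1 quantification, and a second transcript table of estimated counts and TPM. Per the notes deposited beside the files, reads were mapped to mm10 with GENCODE M21; which program quantified them is not given in the sources used here. TPM as deposited is scaled over all features, including spike-ins and ribosomal RNA. Posterior SDs, credibility bounds and the percent that each transcript holds of its gene are as deposited, per the file headers. All 55536 genes were matched to GENCODE M21 by identifier, which gave gene types and coordinates.

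From these values, TPM was rescaled to 1000000 over the coding genes of the nucleus except Lars2. Log2 ratios, replicate 2 over replicate 1, came from expected counts after TMM scaling in edgeR 4.0.16 under R 4.3.3, and 1 count was added as a prior. At a mean count of 100 or more, rounded counts were compared gene by gene in an exact conditional binomial test, with p-values adjusted by Benjamini-Hochberg and called at 0.05. Fold intervals are exact Clopper-Pearson intervals at 95%. Tests and intervals cover counting error only, and no molecular identifiers were used that would make reads independent molecules. The test was tried on simulated counts. With 1 group, no test between groups exists.

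Membership followed the annotated gene type, so H2-Bl, H2-Ea-ps and H2-T10, which have a protein-coding transcript but are polymorphic pseudogenes, were left out and added back as an alternative. The members, gene lists, motifs and rescaling were chosen with earlier results of these data known. Values are given per library for every member at 1 rescaled TPM or more in both libraries, and for others at 10 counts or more in either; of the further antigen processing genes, Psmb5, Psmb6, Psmb7, Rfx5, Rfxap, Rfxank, Irf1 and the 3 highest are named, and of each marker list the highest. Xcr1, Clec9a, Gbp2, Gbp3, Mrc1 and Cd68, and the counts of H2-Ob, H2-M9, H2-Oa and H2-M2, were added after their values were seen. A further antigen processing gene is not reported here. Coding sequences for identity came from GENCODE M21 and were aligned in pairs with Biopython 1.88. Shared stretches were exact 50-base matches among all transcripts, each read in its own direction only. Other steps used Python 3.11.15, numpy 2.4.6, scipy 1.17.1, pandas 2.3.3, statsmodels 0.14.6 and matplotlib 3.10.9. Scaling, count minimum, prior, quantification, level threshold and leaving out a library were varied.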

Additional observations from a re-analysis of the deposited data

How the results depend on the processing

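Of 15 members tested, the exact binomial test called 7 with TMM or DESeq2 1.42.0 size factors, 10 with spike-ins and 15 with total counts. Of all 11542 tested genes, the same settings called 3870 (TMM), 3886 (DESeq2), 5352 (spike-ins) and 11354 (total counts). A minimum of 10 counts gave 9 calls among 27 members and 4294 among 16872 genes. With no minimum there were 8 among 32 members and 4106 among 26080 genes. The second quantification gave 8 among 18 members and 4212 among 11862 genes. Of these 8, B2m and H2-Q10 were lower in replicate 2 (adjusted p = 0.000137 and 1.97e-08 by the exact binomial test). The others were higher, and Psmb8 was not among them. Total counts moved the median of all tested genes by 0.88 and spike-ins by 0.13 on the log2 scale; the members' median log2 ratio, 0.27 with TMM, was 1.15 and 0.40. A change of scaling shifts all genes nearly alike, so the members' median relative to all genes could hardly differ. It was 0.24 in each of these 3 scalings. Total counts also put 12 members at 2-fold higher and turned B2m to 0.84 and H2-Ab1 to 0.79, both reversed in sign; spike-ins also turned them positive, at 0.09 and 0.05. With a minimum of 10 counts the median was 0.33, with 2 members 2-fold higher and 1 lower (H2-Q10); with none it was 0.37, with 7 higher and 1 lower, since more low-count genes enter. The second quantification put 1 member at 2-fold lower (H2-Q10, which reached the count minimum there).

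Levels depended on the quantification and the transcripts counted. The ratio of class I to class II sums, 8.64, was 7.15 in the second quantification and 6.94 over protein-coding transcripts, an alternative added after seeing the data. The class I sum was 376 and 233 under these alternatives, the class II sum 53.4 and 33.6, and the Psmb10 share 20.9% and 6.20%. The Psmb8 share was 2.36% over protein-coding transcripts. Cd74 was at 51.4 and B2m at 382 in the second quantification. On TPM as deposited the class I sum was 114, the class II sum 13.4, Cd74 15.9 and B2m 129, since non-coding RNA then shares the total. Adding H2-Bl, H2-Ea-ps and H2-T10, also after seeing the data, gave 25 detected members. Their mean counts were under 100, so none of them was tested. The members tested were still 15, and the 7 calls could not change.

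Leaving out either library leaves the values of the other, so the levels, ratios and shares below repeat those per library. They are no further check. Detection then asked for 1 library at the threshold, and 24 to 27 members were detected. The ratios were 8.15 to 9.13, the class I sums 418 to 420 and the class II sums 46.0 to 51.3. Cd74 levels were 53.7 to 61.1 and B2m levels 473 to 475. The shares were 3.15% to 6.03% for Psmb8, 2.68% to 5.11% for Psmb9 and 18.4% to 19.9% for Psmb10. No paired analysis was possible because there is 1 group. The prior does not enter the binomial test. Of the 28 members under a mean of 100 counts, 12 could be tested at a minimum of 10, where H2-Q10 was lower and H2-Q6 and Psmb9 were higher (adjusted p = 4.04e-16, 0.0106 and 0.0489 by the exact test) and H2-T22 lost its call (0.0577).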
